A study of Mus musculus with 6 samples.

Results

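The 9 genes described here are Pdx1, Onecut1, Mnx1, Nr5a2, Bhlha15 and Nkx6-3, which encode transcription factors, and Cpa1, Cela1 and Ctrb1, which encode digestive enzymes. All 9 of the 37310 gene identifiers listed had a row in each library, 8 had at least 1 count, and 6 passed the filter on low counts. They were measured by polyadenylated RNA sequencing in tailbuds of mouse embryos at embryonic day 9.5. 3 libraries came from homozygous Danforth's short tail embryos (genotype Sd/Sd) and 3 from wild-type embryos (genotype WT/WT), all on the outbred CD-1 background. Tailbuds of 2 embryos were pooled where input was short, and the labels do not tell which libraries are pools. The genes were picked by name with earlier Sd/Sd against WT values of these libraries in view, so their own differences are given as a description, with no p.

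In the embryo, the pancreas buds from foregut endoderm, in front of the tissue sampled here. Ptf1a, a basic helix-loop-helix factor, and Pdx1, a homeobox factor, together specify pancreatic progenitors. In acinar cells, which make digestive enzymes, Ptf1a joins an E-protein and RBPJ or its relative RBPJL in the PTF1 complex, which binds an E-box beside an RBPJ box in enzyme gene promoters. Danforth's short tail is a semidominant insertion near Ptf1a with ectopic Ptf1a expression.

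The 9 genes were not higher in Sd/Sd as a group. Pdx1 and Cpa1 stood higher in all 3 Sd/Sd libraries than in any WT library, as did 3.26% of the 15471 genes tested. Nr5a2 stood lower in all 3, as did 4.42%, so that 7.68% of genes tested did not overlap in either direction. The other 6 genes overlapped between the genotypes or had no counts. The name ectopic pancreatic genes was not borne out for the set, since most members did not stand higher in Sd/Sd and Cpa1, which did, had 58, 54 and 10 counts in WT libraries 1 to 3. The genes are called the 9-gene set below. Ptf1a, the gene next to the insertion, had 848, 864 and 959 counts in Sd/Sd libraries 1 to 3 and 5, 2 and 1 in WT libraries 1 to 3.

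The letters upstream of Cpa1, Pdx1 and Ctrb1 are shown because these genes had, among the 9, the largest difference in counts, the least spread between Sd/Sd libraries and no counts at all. Each is the 250 bases before the RefSeq start site on build GRCm38.p6, 5′ to 3′ on the gene's strand, with E-boxes (CANNTG) and RBPJ boxes (TTCCCA, on either strand) in capitals.
Cpa1, chr6:30638968-30639217, + strand: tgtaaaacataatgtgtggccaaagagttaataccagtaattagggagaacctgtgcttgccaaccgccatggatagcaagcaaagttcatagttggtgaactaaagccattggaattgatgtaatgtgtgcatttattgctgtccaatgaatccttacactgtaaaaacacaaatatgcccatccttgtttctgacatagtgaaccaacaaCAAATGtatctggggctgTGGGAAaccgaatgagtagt
Pdx1, chr5:147269847-147270096, + strand: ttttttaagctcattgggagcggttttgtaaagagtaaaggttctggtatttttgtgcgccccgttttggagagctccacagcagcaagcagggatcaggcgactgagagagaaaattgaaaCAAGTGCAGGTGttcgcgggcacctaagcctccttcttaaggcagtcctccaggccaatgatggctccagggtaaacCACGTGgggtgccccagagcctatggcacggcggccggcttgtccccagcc
Ctrb1, chr8:111691011-111691260, - strand: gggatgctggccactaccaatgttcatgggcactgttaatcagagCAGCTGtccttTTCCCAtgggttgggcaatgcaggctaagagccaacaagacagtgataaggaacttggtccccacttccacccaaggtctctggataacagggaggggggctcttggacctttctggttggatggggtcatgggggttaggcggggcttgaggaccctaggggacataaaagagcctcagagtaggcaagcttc

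An E-box within 35 bases of an RBPJ box, centre to centre, was present upstream of Cpa1 and Ctrb1, with centres 18 and 11 bases apart. These were 2 of the 9 promoters found for 8 of the genes; Nkx6-3 was not matched. The same search found such a pair in 5.59% of 32851 promoters of the same length. The E-box alone was in 9 of the 9 promoters and in 66.2% of all promoters. Its form CACCTG, also an E-box and so counted in CANNTG, was in 5 of the 9 and in 17.2% of all on either strand. The RBPJ box was in 2 of the 9 and in 21.6% of all. Of the pair of genes with both boxes, Cpa1 was present and higher in Sd/Sd and Ctrb1 had no count, and Pdx1, higher in Sd/Sd, held 3 E-boxes and no RBPJ box in this window. A match of letters is no evidence of binding.

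**Figure D1:**
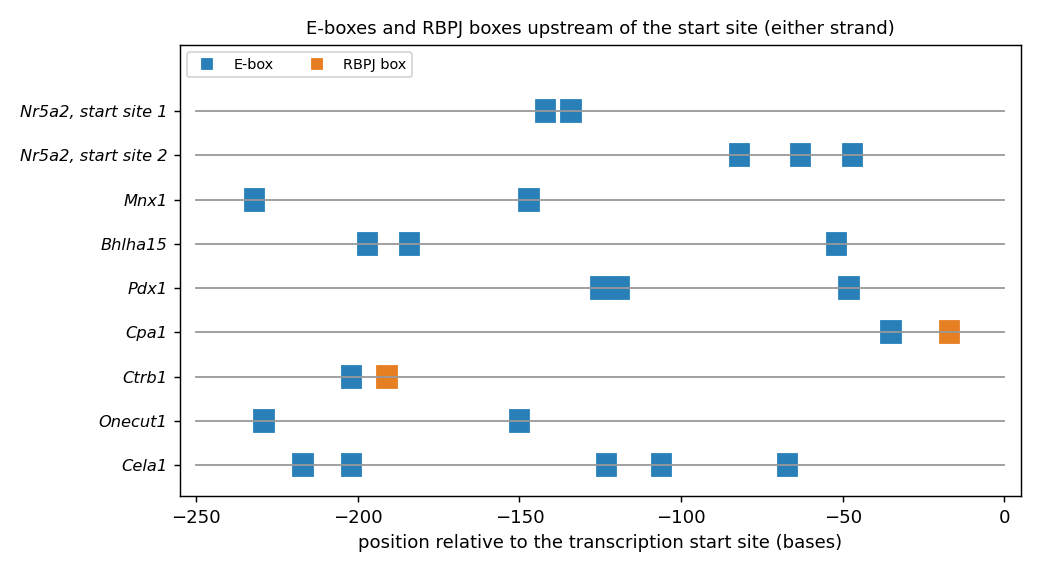
Positions of E-boxes (blue) and RBPJ boxes (orange) in the 250 bases upstream of each RefSeq start site of 8 genes, in bases from the start site; Nr5a2 has 2 start sites. Cpa1 and Ctrb1 are the promoters with an orange box, each beside a blue one.

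Library totals ran from 41788978 to 62296689 counts in Sd/Sd and from 42352598 to 52767718 in WT. Levels are given as CPM, counts scaled to a common library total with edgeR's TMM factors. Markers of the tailbud were present in every library: T, the Brachyury gene of tailbud mesoderm and notochord, measured 143, 77.1 and 203 CPM in Sd/Sd and 144, 152 and 184 CPM in WT. Sd/Sd library 3 stood apart in somite markers, whose summed level was 66.9 CPM, against 471 and 591 CPM in Sd/Sd libraries 1 and 2 and 276 to 424 CPM in WT.

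Pdx1 (ENSMUSG00000029644.6, chromosome 5) marks the pancreatic and duodenal part of the gut and later insulin-producing cells. It measured 0.509, 0.511 and 0.428 CPM in Sd/Sd libraries 1 to 3, against 0.0379, 0.0946 and 0.0474 CPM in WT libraries 1 to 3. The Sd/Sd libraries lay close together and all above WT, with means of 0.483 ± 0.0473 CPM in Sd/Sd and 0.0600 ± 0.0304 CPM in WT (SD, n = 3 each). These levels rest on 21, 32 and 21 counts in Sd/Sd and 2, 5 and 2 in WT, a ratio of 7.95 (95% counting interval 3.97 to 18.1), and Pdx1 passed the filter on low counts through its Sd/Sd libraries. The fitted log2 fold change was 2.94 (SE 0.53). In tissue sampled in bulk, a difference in the number of cells of a type and a difference in RNA per cell cannot be told apart, here and below.

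Of the neighbours of Pdx1 on chromosome 5, Cdx2 overlapped between the genotypes. Cdx2, a homeobox gene of hindgut and tailbud that forms the ParaHox cluster with Pdx1 and Gsx1, measured 132, 66.9 and 188 CPM in Sd/Sd and 103, 127 and 167 CPM in WT (log2 fold change -0.04 with an SE of 0.43, edgeR adjusted p = 1.00). Gsx1 had 0 counts in Sd/Sd and 2 in WT. Plut, a noncoding gene beside Pdx1 named from the annotation, had 6 counts in Sd/Sd and 2 in WT, a ratio of 2.90 (95% counting interval 0.519 to 29.4), so that neither a change nor its absence was detectable at this depth. Whether the counting used strand is unknown here, and reads of overlapping genes cannot be told apart. These neighbours were looked at for their position, after the values of Pdx1 were known.

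Cpa1 (ENSMUSG00000054446.8, chromosome 6) encodes carboxypeptidase A1, which in the developing pancreas marks multipotent tip cells before it marks acinar cells. It measured 4.71, 7.79 and 1.26 CPM in Sd/Sd libraries 1 to 3, against 1.10, 1.02 and 0.237 CPM in WT libraries 1 to 3. The groups did not overlap, but the lowest Sd/Sd library, number 3, stood barely above the highest WT library, number 1. Means were 4.59 ± 3.27 CPM in Sd/Sd and 0.786 ± 0.477 CPM in WT (SD, n = 3 each), from 744 and 122 summed counts, a ratio of 5.90 (95% counting interval 4.86 to 7.20). The fitted log2 fold change was 2.53 (SE 0.81).

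Cpa1 varied far more between libraries of one genotype than Pdx1. Its highest library was 6.16 times its lowest in Sd/Sd and 4.64 times in WT, while the same measure for Pdx1 was 1.19 in Sd/Sd and 2.49 in WT, the last on 9 counts. Library 3 was the lowest of both genotypes, and within each number Cpa1 was higher in Sd/Sd, by 4.28, 7.63 and 5.34 times for numbers 1 to 3. For Pdx1 these same-number ratios were 13.4, 5.40 and 9.04. As neither gene overlapped between the genotypes, any matching of libraries would give this direction, and it says nothing about the numbers. The fitted values above did not use the numbers. With the replicate number as a block in the fit, the log2 fold change was 2.49 (SE 0.28) for Cpa1 and 2.97 (SE 0.62) for Pdx1.

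**Figure D2:**
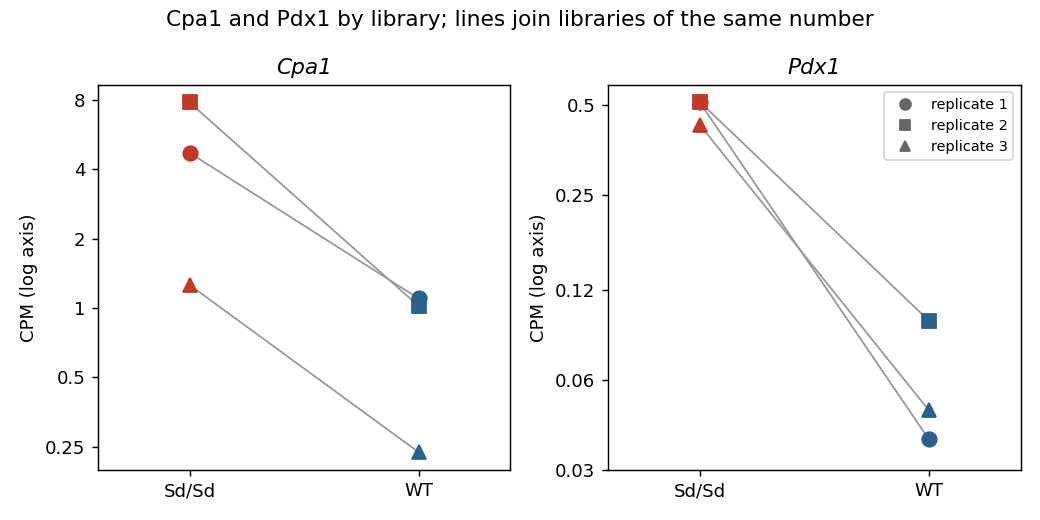
CPM on a log axis of Cpa1 (left) and Pdx1 (right) in each library, Sd/Sd in red and WT in blue, with lines joining libraries that carry the same replicate number. Every line falls from Sd/Sd to WT, as any joining would give, since the groups do not overlap. Both number 3 libraries sit lowest for Cpa1.

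Ptf1a itself was steady where Cpa1 was not. Ptf1a measured 20.6, 13.8 and 19.6 CPM in Sd/Sd libraries 1 to 3, so that Cpa1 had 0.229, 0.565 and 0.0647 counts per Ptf1a count in those libraries. Kirrel2, a known Ptf1a target in neural tissue, measured 15.4, 18.3 and 7.51 CPM there and 0 to 0.0237 CPM in WT, in the same order of Sd/Sd libraries as Cpa1 but over a smaller range. Summed somite markers, 471, 591 and 66.9 CPM in Sd/Sd libraries 1 to 3 and 424, 276 and 299 CPM in WT libraries 1 to 3, had that order in Sd/Sd but not in WT, where library 3 was lowest for Cpa1. Summed neural tube markers, from 6 genes with counts of 7 with a row, were 231, 256 and 183 CPM in Sd/Sd and 229, 208 and 198 CPM in WT, the order of Cpa1 in both genotypes. Most of each sum was Nes, at 168, 168 and 156 CPM in Sd/Sd and 155, 154 and 141 CPM in WT. Sox2, of the same list, had the order of Cpa1 in Sd/Sd but not in WT, at 40.3, 37.3 and 38.9 CPM. The part of tissue composition in the level of Cpa1 was not tested.

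Cpa4 and Cpa5, carboxypeptidase genes near Cpa1, did not pass the test. For Cpa4 the log2 fold change was 0.52 (SE 0.62) and for Cpa5 -0.47 (SE 0.47), each with an edgeR adjusted p = 1.00. On the other side, Cep41 and the imprinted gene Mest had 0.16 (SE 0.09) and 0.00 (SE 0.09), also at an adjusted p = 1.00. Reads shared between these related genes cannot be checked from gene counts.

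Of the remaining enzyme genes, Cela1 overlapped between the genotypes and Ctrb1 had no counts. Cela1, which encodes an elastase of the chymotrypsin-like family and is also known outside the pancreas, measured 0.485, 0.623 and 0.449 CPM in Sd/Sd and 0.664, 0.322 and 0.521 CPM in WT. The WT libraries lay on both sides of the Sd/Sd range, with a log2 fold change of 0.05 (SE 0.41) and a ratio of counts of 1.06 (95% counting interval 0.763 to 1.47). Ctrb1, which encodes chymotrypsinogen B1 and belongs to the most abundant messages of acinar cells, had 0 counts in all 6 libraries. A count of 0 allows up to 0.0196 CPM over the Sd/Sd libraries and 0.0203 CPM over the WT libraries, where the floor is 3 counts over each genotype and covers counting error only.

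Nr5a2 (ENSMUSG00000026398.8, chromosome 1), a nuclear receptor gene that acts with PTF1 at acinar genes and is also known from early epiblast and gut, was lower in Sd/Sd. It measured 1.19, 1.05 and 0.551 CPM in Sd/Sd and 1.35, 1.63 and 1.47 CPM in WT, with no overlap and with Sd/Sd library 3 lowest. Means were 0.931 ± 0.336 CPM in Sd/Sd and 1.48 ± 0.141 CPM in WT (SD, n = 3 each), a log2 fold change of -0.67 (SE 0.34) that was -0.40 without Sd/Sd library 3. Of 15 tested hindgut and cloacal endoderm markers 15 had a negative log2 fold change (median -0.50, against -0.00 over all genes tested). Among them Krt8, Krt18, Cdx2 and Cdh1 lay near 0, at -0.08, -0.00, -0.04 and -0.04. Shh, Foxa2, Krt8 and Krt18 are also on the list of notochord markers, so the list is not specific to hindgut. Shh and Ihh fell past the threshold (edgeR adjusted p = 0.0438 for each), beside 0.0194% of all genes tested called lower. However, limma-voom called 0 genes lower over the whole table. The summed level of those markers, in which Krt8, Krt18 and Cdx2 weigh most, was 624, 633 and 871 CPM in Sd/Sd and 683, 867 and 844 CPM in WT. Pluripotency and epiblast markers, 9 with counts of 9, summed to 61.2, 49.2 and 67.8 CPM in Sd/Sd and 70.1, 71.6 and 77.5 CPM in WT, and 6 of the 8 tested had a negative log2 fold change (median -0.17). Most of each sum was Tbx3, at 56.7, 40.9 and 63.8 CPM in Sd/Sd and 65.7, 66.9 and 68.3 CPM in WT. Of the 8 tested, 1 was lower without overlap, Tbx3, beside 4.42% of all genes tested. The part of either cell type in the level of Nr5a2 was not tested.

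Bhlha15 and Mnx1, both on chromosome 5 with Pdx1, were present in all libraries of both genotypes. Bhlha15 encodes MIST1, a factor of mature secretory cells such as acini, and measured 1.21, 1.36 and 1.12 CPM in Sd/Sd and 1.44, 1.31 and 2.01 CPM in WT. Sd/Sd library 2 stood above WT library 2, so the groups overlapped, with a log2 fold change of -0.36 (SE 0.28). Mnx1, known from the dorsal pancreatic bud but also from notochord, tailbud and motor neurons, measured 5.02, 3.31 and 7.47 CPM in Sd/Sd and 5.84, 6.19 and 6.49 CPM in WT. The Sd/Sd libraries lay on both sides of the narrow WT range (log2 fold change -0.23, SE 0.27). T and Cdx2 were also lowest in Sd/Sd library 2 and highest in Sd/Sd library 3. Isl1, a gene of motor neurons and of other tissues, measured 38.9, 30.6 and 48.1 CPM in Sd/Sd and 45.0, 41.6 and 43.8 CPM in WT. Summed motor neuron markers, 6 with counts of 7 with a row, were 39.5 to 49.6 CPM in Sd/Sd and 48.3 to 55.6 CPM in WT, with Chat at 1 count in Sd/Sd and 4 in WT. Of 10 notochord markers, all tested, 10 had a negative log2 fold change (median -0.41). Of these, 4 were lower without overlap, beside 4.42% of all genes tested. Shh alone passed with edgeR, beside 0.0194% of all genes tested called lower. It is the same call as in the hindgut and cloacal list, which also shares Foxa2, Krt8 and Krt18 with this list. Noto, a defining notochord gene, measured 2.23, 0.144 and 1.71 CPM in Sd/Sd and 8.04, 8.53 and 11.1 CPM in WT (log2 fold change -2.79 with an SE of 0.86, edgeR adjusted p = 1.00). The summed level of the notochord list, most of it T, Krt8 and Krt18, was 472 to 721 CPM in Sd/Sd and 533 to 695 CPM in WT. The part of these cell types in the level of Mnx1 was not tested.

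Onecut1 and Nkx6-3 were at the edge of detection. Onecut1, also called HNF6, acts above Pdx1 in the pancreatic endoderm and in duct cells, and had 3, 15 and 1 counts in Sd/Sd and 8, 0 and 1 in WT. Its 19 counts in Sd/Sd and 9 in WT gave a ratio of 2.04 (95% counting interval 0.880 to 5.12), with most reads in Sd/Sd library 2 and WT library 1. Nkx6-3, better known from stomach than from pancreas, had 1, 2 and 0 counts in Sd/Sd and 1, 4 and 0 in WT. A difference was not detectable at this depth for either gene.

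**Figure D3:**
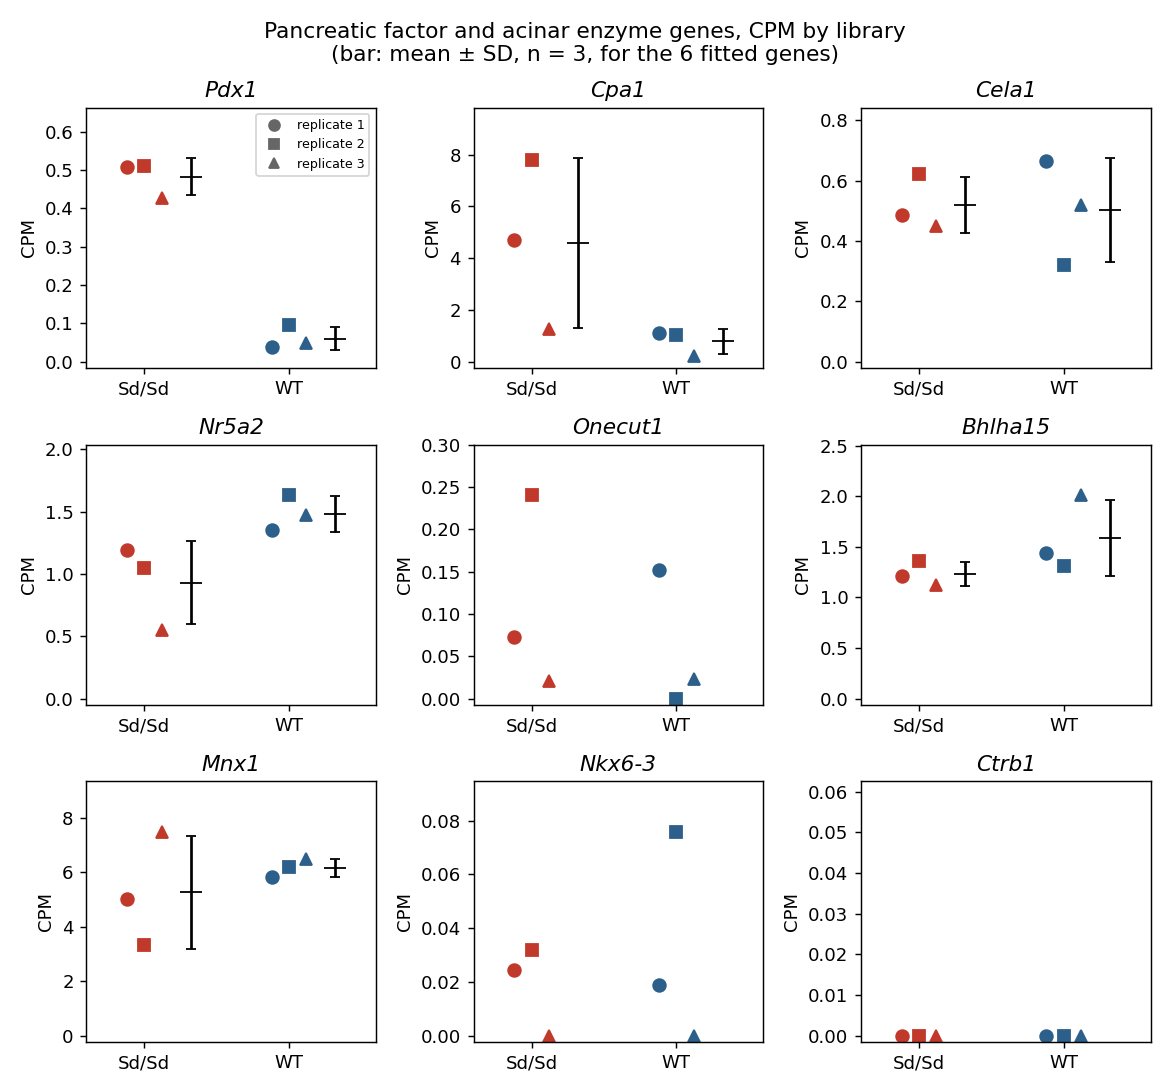
CPM of each of the 9 genes in the 3 Sd/Sd (red) and 3 WT (blue) libraries, with symbols for the replicate number and black bars for mean ± SD of the 6 genes that passed the filter. Pdx1 and Cpa1 are higher in every Sd/Sd library, Nr5a2 is lower in every one, and Ctrb1 is at 0 throughout; each panel has its own scale.

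Set side by side per kilobase of exon (GENCODE M21 lengths, which are not known to be the models the authors counted on), the order of levels in Sd/Sd was Cpa1 at 2.62 CPM per kilobase, Mnx1 at 2.34, Bhlha15 at 0.352, Cela1 at 0.225, Pdx1 at 0.224, Nr5a2 at 0.158, Onecut1 at 0.0270, Nkx6-3 at 0.00837 and Ctrb1 at 0. Among neighbours in that order Cpa1 and Mnx1 overlapped between libraries, as did Cela1, Pdx1 and Nr5a2, whereas Bhlha15 stood clear on both sides. In WT the order was Mnx1 at 2.74 CPM per kilobase, Bhlha15 at 0.454, Cpa1 at 0.449, Nr5a2 at 0.251, Cela1 at 0.218, Pdx1 at 0.0278, Onecut1 at 0.0142, Nkx6-3 at 0.0141 and Ctrb1 at 0. Mnx1 and Cela1 stood clear of the gene next below in WT, and Bhlha15 and Cpa1, Cpa1 and Nr5a2, Nr5a2 and Cela1, Pdx1 and Onecut1, and Onecut1 and Nkx6-3 overlapped. Pdx1 in Sd/Sd thus reached the level per length of Cela1, and in WT its range overlapped that of Onecut1.

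Of the 6 genes of the set that could be fitted, 0 passed the threshold of adjusted p 0.05 over all genes with edgeR's quasi-likelihood test. Over all 15471 genes tested, 9 passed (0.0582%), of which 6 were higher (0.0388%) and 3 lower (0.0194%). At an unadjusted p under 0.05 the count in the set was 2 of 6 with edgeR, beside 448 of 15471 genes (2.9%). With limma-voom the adjusted count was also 0 of 6, beside 3 of 15471 genes (0.0194%), and with DESeq2 it was 0 of 6 beside 0.22% of all genes (0.123% higher and 0.097% lower). Same-numbered libraries of the genotypes were taken as pairs, but the fits above did not use the pairs. With the number as a block in edgeR the count was 1 of 6, Cpa1, beside 0.0776% of all genes (0.0517% higher and 0.0259% lower). The same contrast chose the genes, so these counts support nothing.

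Other genes of the pancreas were read in the same fit. 6 lists held 135 genes besides the 9, of which 133 had a row and 72 were tested. Ptf1a rose (log2 fold change of 8.32 with an SE of 0.35, edgeR adjusted p = 3.17e-05), with 2671 counts in Sd/Sd and 8 in WT, a ratio of 323 (95% counting interval 164 to 749), and 71 did not pass. 5 of the 72 had an unadjusted p under 0.05, beside 2.9% of all genes tested, DESeq2 called Ptf1a and Foxa1, and limma-voom called Ptf1a alone. Over the 72 genes the median log2 fold change was -0.05 and 41.7% were positive, beside -0.00 and 49.9% over all genes tested. Ptf1a belongs to the locus of the mutation, and the lists were drawn up with earlier results of these data known.

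The partners of Ptf1a in the PTF1 complex were present in both genotypes. Rbpj and the E-protein genes Tcf3, Tcf4 and Tcf12 had log2 fold changes of 0.11, 0.06, 0.05 and 0.15, none past the threshold, and Tcf3 measured 508 ± 65.7 CPM in Sd/Sd and 488 ± 28.9 CPM in WT (SD, n = 3 each). Rbpjl, whose product replaces RBPJ in mature acinar cells and which Ptf1a is known to induce, had 5, 2 and 1 counts in Sd/Sd and 2, 6 and 4 in WT.

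Factors of pancreatic progenitors had 21 tested members with a median log2 fold change of -0.05; 0 passed with edgeR, and 4 had an unadjusted p under 0.05, beside 2.9% of all genes tested. The 3 with the smallest p were the forkhead genes Foxa1, Foxa2 and Foxa3, all lower without overlap, as were 4.42% of all genes tested. Foxa1 and Foxa2 are also on the hindgut and cloacal list, and Foxa2 on the notochord list. Foxa1 measured 6.99, 6.44 and 3.20 CPM in Sd/Sd and 14.2, 11.3 and 14.8 CPM in WT (log2 fold change -1.28 with an SE of 0.28, edgeR adjusted p = 0.755), and DESeq2 called it. For Foxa2 the log2 fold change was -0.92 (SE 0.23, edgeR adjusted p = 0.930), and for Foxa3 it was -1.23 (SE 0.40, edgeR adjusted p = 1.00). The fourth, Klf4, a zinc finger factor gene, went the other way, at 3.15, 3.07 and 3.28 CPM in Sd/Sd and 2.43, 2.38 and 1.99 CPM in WT without overlap (log2 fold change 0.48, SE 0.20, edgeR adjusted p = 1.00). Hnf4a, an endoderm factor left out by the filter, had 2, 2 and 4 counts in Sd/Sd and 10, 19 and 6 in WT, a ratio of 0.221 (95% counting interval 0.0886 to 0.485).

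Of 40 other acinar enzymes and secretory proteins with a row, 18 had no count in any library and 7 were tested. Of the 7, 5 had a positive log2 fold change (median 0.15), 0 passed with edgeR, DESeq2 or limma-voom, and 0 had an unadjusted p under 0.05. Cpb1, which encodes carboxypeptidase B1, measured 0.558, 0.383 and 0.163 CPM in Sd/Sd and 0.209, 0.0946 and 0.379 CPM in WT (log2 fold change 0.71, SE 0.63, edgeR adjusted p = 1.00). For Fkbp11, a chaperone gene of secretory cells, the log2 fold change was -0.21 with an SE of 0.19 (edgeR adjusted p = 1.00). Spink1, which encodes a trypsin inhibitor and is also a marker of the embryonic gut, had 2, 9 and 0 counts in Sd/Sd and 16, 14 and 8 in WT, a ratio of 0.280 (95% counting interval 0.129 to 0.559).

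Secretory granule and endoplasmic reticulum genes that acinar cells use had 18 tested members, a median log2 fold change of -0.01 and 0 past the threshold with edgeR, DESeq2 or limma-voom, also 0 at an unadjusted p under 0.05. Gatm, Hspa5 and Bcat1 had the smallest p. Gatm, for creatine synthesis, measured 5.30 ± 0.524 CPM in Sd/Sd and 6.37 ± 0.282 CPM in WT without overlap (SD, n = 3 each; log2 fold change -0.27, SE 0.16, edgeR adjusted p = 1.00). For Hspa5, the chaperone BiP, it was -0.11 and for Bcat1, a branched-chain aminotransferase gene, 0.09, with SEs of 0.08 and 0.09 and an edgeR adjusted p = 1.00 for both.

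Endocrine pancreas genes had 9 tested members of 29 with a row and 0 passed with edgeR, DESeq2 or limma-voom, also 0 at an unadjusted p under 0.05 (median log2 fold change -0.23). Chga, a granule protein gene, and Ttr had log2 fold changes of -0.42 and -0.46 (edgeR adjusted p = 1.00 for each). Ppy, the pancreatic polypeptide gene, was left out by the filter. It had 13, 26 and 5 counts in Sd/Sd and 1, 0 and 0 in WT, a ratio of 42.5 (95% counting interval 7.25 to 1720). Every Sd/Sd library stood above every WT library, as for 3.26% of the 15471 genes tested, which do not include Ppy. Pyy, the neighbour of Ppy and the peptide YY gene of gut endocrine cells, had 0, 7 and 1 counts in Sd/Sd and 6, 10 and 9 in WT. It was also without overlap, but lower in Sd/Sd, as were 4.42% of genes tested. Pcsk2 and Sst, a prohormone convertase gene and the somatostatin gene, had 36 and 18 counts in Sd/Sd and 18 and 32 in WT, and both overlapped between groups. Gcg and Ins1 had no count in any library, and Ins2 had 1 in Sd/Sd and 3 in WT.

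Duct genes had 14 tested members, of which 10 had a negative log2 fold change (median -0.27) and 0 passed with edgeR, DESeq2 or limma-voom or at an unadjusted p under 0.05. The keratin genes Krt19 and Krt7, which other epithelia also express, had log2 fold changes of -0.35 and -0.42 (edgeR adjusted p = 1.00 for each).

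**Figure D4:**
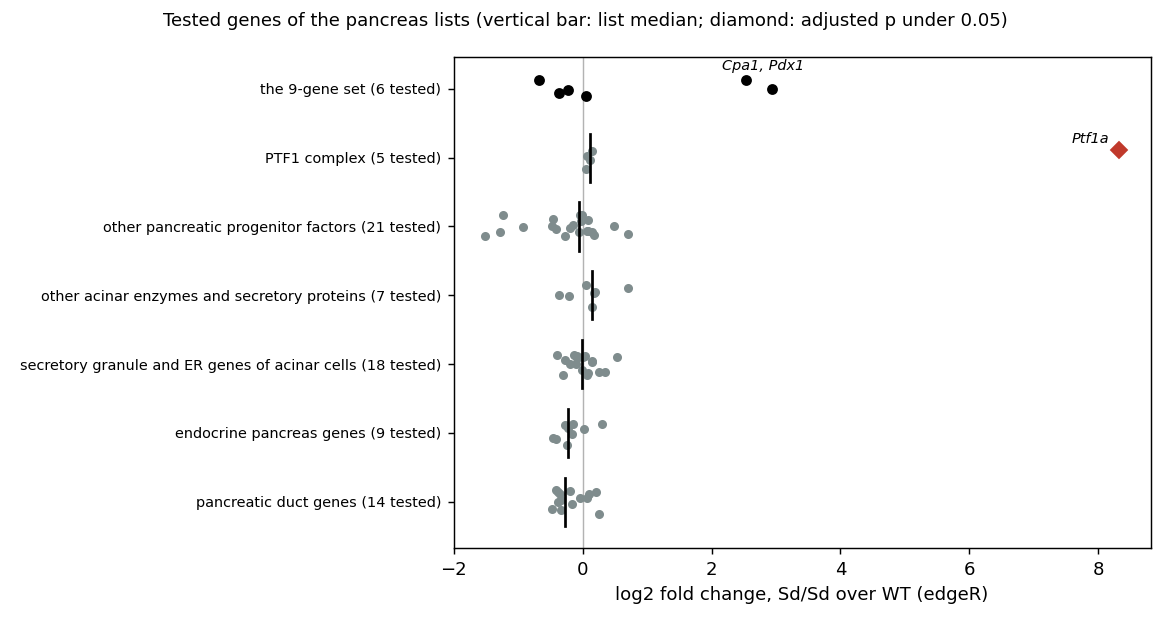
Log2 fold changes of Sd/Sd over WT for the tested genes of the 9-gene set (black) and of 6 pancreas lists (grey, with the list median as a bar). Ptf1a, at 8.32, is the single gene past the threshold, and Cpa1 and Pdx1, at 2.53 and 2.94, lie right of the other genes shown except Ptf1a.

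Markers of other organs that express parts of the set were partly at 0 and partly above the level of Pdx1. Alb, Gkn1, Gkn2 and Fabp2, of liver, stomach and small intestine, had no count in any library. Summed markers of liver and yolk sac endoderm were 7.85 to 10.6 CPM in Sd/Sd and 12.3 to 12.9 CPM in WT, over 12 genes with counts of 13. Among these, Afp averaged 1.49 ± 1.46 CPM in Sd/Sd and 2.75 ± 1.20 CPM in WT, and Rbp4 4.04 ± 0.414 CPM in Sd/Sd and 4.85 ± 1.09 CPM in WT (SD, n = 3 each). Of 12 stomach and duodenum markers 9 had counts, and the most abundant was Sox2, also a neural gene, at 38.1, 44.0 and 21.5 CPM in Sd/Sd and 40.3, 37.3 and 38.9 CPM in WT. Barx1, of stomach mesenchyme, averaged 2.78 ± 1.42 CPM in Sd/Sd and 3.28 ± 1.39 CPM in WT, and Onecut2 3.18 ± 0.650 CPM in Sd/Sd and 3.00 ± 0.162 CPM in WT (SD, n = 3 each). The part of these organs' cells in the levels of the 9 genes was not tested. For inhibitory dorsal neurons, in which Ptf1a also acts, Kirrel2 and Nphs1 rose (edgeR adjusted p = 0.00275 and 0.0210), while Gad2 had 6 counts in Sd/Sd and 17 in WT. Of the 8 tested genes of that list 2 were higher and 2 lower without overlap, beside 3.26% and 4.42% of all genes tested. The lower genes were Gad1 (log2 fold change -0.70, SE 0.43) and Pax2 (-0.54, SE 0.14). The summed level of the list was 53.6, 48.9 and 42.6 CPM in Sd/Sd and 43.3, 44.4 and 47.1 CPM in WT. The Sd/Sd sums hold Kirrel2 at 15.4, 18.3 and 7.51 CPM and Nphs1 at 3.06, 3.63 and 1.49 CPM. Both genes were at 0 to 0.0237 CPM in WT, so the sums do not show the rest of the list. Of the 8 tested genes, these included, 5 had a positive and 3 a negative log2 fold change.

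Over the 6 libraries, the genes whose log2 CPM followed Pdx1 most closely among 15465 others were Ggt5, Arhgef40 and Lrrc7, with Pearson r of 0.995, 0.993 and 0.986. Ggt5 measured 1.43, 1.20 and 1.33 CPM in Sd/Sd and 0.190, 0.322 and 0.213 CPM in WT, and Lrrc7 0.898, 0.958 and 0.694 CPM in Sd/Sd and 0.152, 0.246 and 0.237 CPM in WT. Nphs1, Kirrel2 and Ptf1a ranked 6, 8 and 14 on this measure, with r of 0.979, 0.976 and 0.966. For Cpa1 the closest were Map2k5, Ncbp3 and Nes, with r of 0.986, 0.984 and 0.983, and Ptf1a ranked 480 with r of 0.770. The measure takes no account of the size of a change. The log2 fold changes of Map2k5, Ncbp3 and Nes were 0.13, 0.06 and 0.13, and that of Arhgef40 was 0.17. With 6 libraries in 2 groups many genes reach high values, and the measure only orders them.

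The direction of the log2 fold change held for Pdx1, Cpa1, Nr5a2 and Bhlha15 in every alternative in which each could be fitted. It ranged from 2.70 to 3.44 for Pdx1 in 13 alternatives and from 1.90 to 2.97 for Cpa1 in 14, lowest without Sd/Sd library 2. For Nr5a2 it ranged from -0.87 to -0.40 and for Bhlha15 from -0.48 to -0.16. Cela1 turned negative without Sd/Sd library 2 or WT library 2, at -0.10 and -0.19, and Mnx1 turned positive without Sd/Sd library 2, at 0.02.

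**Figure D5:**
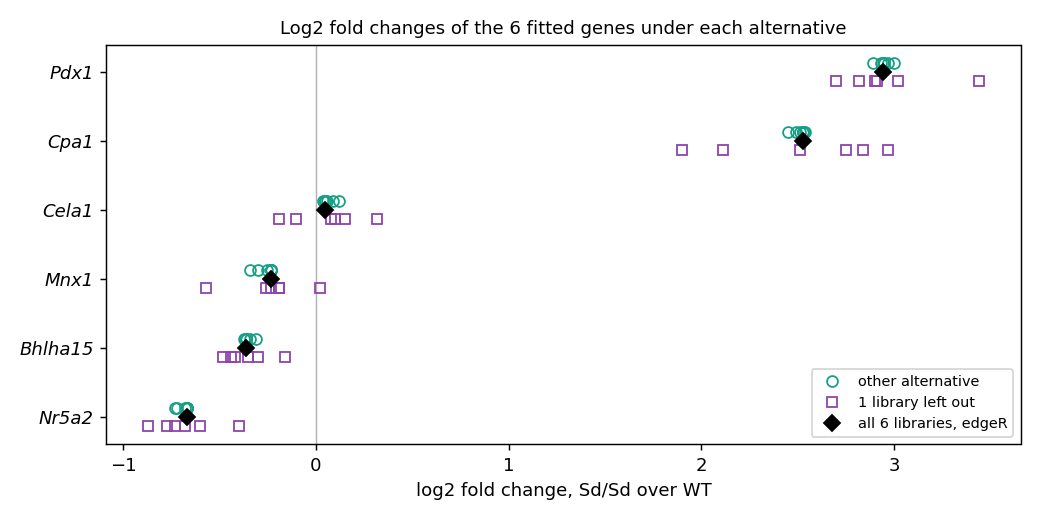
Log2 fold changes of Sd/Sd over WT of the 6 fitted genes: black diamonds for edgeR on all 6 libraries, circles for other tools, scalings and filters, squares for fits with 1 library left out. Pdx1 and Cpa1 stay right of 1.90, and Cela1 and Mnx1 have points on both sides of 0.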

How the data were processed

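Raw counts per Ensembl gene were deposited by the authors, 1 file per library, for 3 Sd/Sd and 3 WT libraries. Per the submitters' processing notes, which name tools and a build with no role or order, the list was STAR 2.5.2b, bcl2fastq 2.17.1.14, SAMtools, CASAVA, DESeq2 and mm9. Counter, strand setting and annotation release: not given in the sources used here. Symbols came from GENCODE M21 (32620 of 37310 identifiers matched), and promoter sequences from RefSeq on GRCm38.p6, a build other than the mm9 that these notes name. The 2269 identifiers of chromosome X are listed at 0 throughout.

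The filter on low counts was filterByExpr with a minimum count of 10 and total of 15, and the genotypes were compared in R 4.3.3 with edgeR 4.0.16 (TMM, robust quasi-likelihood F test, 2-sided, Benjamini-Hochberg over 15471 genes, threshold 0.05); scripts were tested on simulated data. SEs of log2 fold changes were taken as |log2 fold change|/√F. CPM were computed from counts and TMM factors. Ratios of summed counts carry exact 95% conditional intervals that, like floors of 3 counts, cover counting error only; without molecular identifiers, reads are not independent molecules. An exact permutation test of 3 against 3 cannot go below 0.1. Separate litters are not stated in the labels, and p-values then reflect the spread among these libraries, which may be technical. Log2 CPM for likeness used a prior count of 2.

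The 9 genes, the 6 pancreas lists and the marker lists were chosen with earlier results of these data known. Named genes are the 9, Ptf1a, Rbpjl and Kirrel2; from each list every gene that passed, otherwise its 3 genes of smallest p; the 5 list genes with most counts among those not tested; and 3 genes most like Pdx1 and Cpa1. Others were named after their values were seen. Some genes under this rule are not reported here. Libraries of the same number deviated together from their group means (correlations 0.194, 0.144 and 0.275 for numbers 1, 2 and 3 over 15471 genes, where the labels share the number), and these numbers were taken as pairs; 1 pair of different numbers, Sd/Sd 2 and WT 1, reached 0.182. The main edgeR fit had genotype alone and no replicate block, so SEs and adjusted p do not use these pairs except where a block is named. Alternatives were DESeq2 1.42.0, limma-voom (limma 3.58.1), other scalings and filters, a replicate block and leaving out each library.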

Additional observations from a re-analysis of the deposited data

How the results depend on the processing

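Ptf1a was the single gene of the 6 pancreas lists called higher in every one of the 14 alternatives, and none was called lower except with DESeq2, where 1, Foxa1, was. Over all genes, edgeR called 6 higher and 3 lower. DESeq2 called 19 higher and 15 lower, limma-voom 3 and 0, edgeR without the robust option 3 and 0, and edgeR with no filter on low counts 9 and 5. Leaving out 1 library gave 2 to 5 higher and 0 to 1 lower; such fits have fewer samples. The replicate block gave 8 higher and 4 lower and changed no call in the pancreas lists. Among the 6 fitted genes of the set, which the same contrast had chosen, it called Cpa1 in addition and changed no other call. Other scalings gave the same counts. For the other results that moved, the cause was not tested. Of the set, the value of Pdx1 moved by more than the spread between replicates in 1 alternative, 3.44 without WT library 2. Onecut1, Nkx6-3, Ctrb1, Rbpjl and Ppy, left out by the filter on low counts, are limited by depth.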

Other observations

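Small counts of some pancreas genes lay mostly in 1 Sd/Sd library, not always the same one. These genes were picked after their values were seen and none was tested. Pla2g1b, which encodes pancreatic phospholipase A2, had 0, 10 and 0 counts in Sd/Sd libraries 1 to 3 and 0 in WT. Cela2a, an elastase gene, had 0, 9 and 0 counts in Sd/Sd and 0, 0 and 1 in WT. Pax4, an endocrine factor gene, had 1, 19 and 0 counts in Sd/Sd and 2, 6 and 0 in WT. Amy1, an amylase gene, had 0, 0 and 8 counts in Sd/Sd and 0, 0 and 1 in WT, and Reg3b 0, 0 and 3 in Sd/Sd and 0 in WT. Sd/Sd library 2 is also the library with the most Cpa1, Onecut1 and Ppy, and the deepest, at 62296689 counts.

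Insm1 and Neurod1, factors of endocrine cells and of neurons, were likewise chosen after their values were seen. Insm1 had 12, 21 and 3 counts in Sd/Sd and 4, 0 and 2 in WT, a ratio of 5.80 (95% counting interval 2.42 to 16.8), with overlap between Sd/Sd library 3 and WT. Neurod1 had 6, 18 and 0 counts in Sd/Sd and 4, 4 and 0 in WT, a ratio of 2.90 (1.26 to 7.47). Neurog3, which acts above both in the pancreas, had 9, 39 and 2 counts in Sd/Sd and 27, 18 and 6 in WT. Among gut peptides, Ghrl, the ghrelin gene, had 1 count in Sd/Sd and 10 in WT.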
